A study of Mus musculus with 4 samples.

Results

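The cell cycle genes described here are 35 genes, 10 that act in DNA synthesis (S) and 25 that act in G2 and mitosis (G2/M), out of 17524 gene rows in single-cell RNA-seq counts of mouse thoracic aorta. The rule names the genes and uses no measured value, and all 35 had a row in each of the 4 libraries. The S members are 6 minichromosome maintenance genes (Mcm2 to Mcm7), Pcna, Tyms, Rrm1 and Rrm2. The G2/M members are Mki67, Top2a, Cdk1, Ccnb1, Ccnb2, Ccna2, Birc5, Cenpf, Cenpa, Cenpe, Ube2c, Tpx2, Prc1, Pbk, Spc25, Nusap1, Aurka, Aurkb, Bub1, Bub1b, Plk1, Cdc20, Kif11, Kif20a and Hmmr. Their unique molecular identifiers (UMIs, which count captured RNA molecules) were summed within 3 gates set on the counts of each cell. The smooth muscle cell (SMC) gate takes cells with at least 3 UMIs of Myh11, a smooth muscle myosin. Cells with at least 10 UMIs of the matrix proteoglycan genes Dcn and Lum together and at most 1 of Myh11 form the fibroblast gate. The phagocyte gate takes cells with at least 10 UMIs of Lyz2, C1qa and C1qb together, genes of macrophages and related phagocytes, and under 10 of Dcn and Lum. A cell can pass both the SMC and the phagocyte gate.

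The 4 groups were wild type (WT) mice on a normal diet with saline, WT mice on a high fat diet for 5 weeks with angiotensin II (AngII, a vasoconstrictor peptide hormone) infused for 7 days, and Sting knockout (KO) mice under each of the same treatments. Each group was 1 library of thoracic aortas pooled from 3 mice, from which periaortic fat had been removed and viable cells sorted by exclusion of the dye DAPI. With 1 library per group there was no replicate check and no test between groups, and every interval below is a 95% interval that covers counting error only. WT and KO below are the labels of the libraries. Infusion and diet changed together, so their parts in a difference cannot be told apart. Values given as 4 in a row list WT first, saline before AngII, and then KO in the same way. Levels are UMIs per 1000000 UMIs of the gate (CPM). A gene was counted as higher or lower when 2 libraries differed at least 1.5-fold and it had at least 50 UMIs over both. Where 1 library had 0 UMIs of a gene, 3 UMIs were put in its place, which makes the ratio a lower bound.

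The libraries kept 9242, 8475, 12024 and 8496 cells with a median of 5894.5, 9954, 6081 and 9300.5 UMIs per cell, so cells of the AngII libraries were deeper. The shallowest deposited cells held 1753, 3583, 1947 and 4345 UMIs and the deepest 23413, 36574, 26064 and 38196, so the range of depths differed between the libraries before deposit. Tmem173, the gene that encodes STING, stood at 1.75 (1.43 to 2.12), 7.03 (6.497 to 7.60), 1.33 (1.08 to 1.61) and 6.10 (5.62 to 6.62) CPM. It was thus somewhat lower in the library labelled KO under each treatment, with intervals that overlap, and it was not lost there. These counts come from RNA 3′ ends, and reads outside a deleted part check nothing. Pairs of libraries shared 92 to 148 cell barcodes. The SMC gate held 7546, 5889, 10350 and 5660 cells, the fibroblast gate 1021, 1696, 506 and 1879 and the phagocyte gate 285, 705, 83 and 559. Each of the 3 marker lists was highest in its own gate. The summed smooth muscle markers stood at 42614, 36233, 46082 and 37967 CPM in the SMC gate. The same markers in the fibroblast gate stood at 1734, 1305, 5587 and 2293 CPM, highest in the library labelled KO saline. T and NK, B, mast and red blood cell markers stayed at or below 25 CPM in each gate and library.

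Cells that divide copy their DNA in S phase and separate the copies in mitosis. The helicase built from Mcm2 to Mcm7 opens the DNA, Pcna is the sliding clamp of the polymerases, and Tyms, Rrm1 and Rrm2 supply nucleotides. Cyclin-dependent kinase 1 (Cdk1) with A and B type cyclins then drives entry into mitosis, and the kinetochore, spindle and checkpoint genes carry it out. Most medial smooth muscle cells and adventitial fibroblasts of a healthy adult aorta are quiescent, and both can re-enter the cycle after injury. Repressor complexes hold many G2/M genes silent in quiescent cells through a promoter element called the CHR, often beside CCAAT boxes, whereas many S genes carry E2F sites.

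The promoters of 6 members with many UMIs are shown because the S and G2/M sets differ in their CHR and E2F letters, while CCAAT is frequent in both. Each line holds 200 bases, 170 before to 30 from the annotated start on, 5′ to 3′ on the gene's strand, from RefSeq on build GRCm38.p6. Capitals mark matches on either strand to the CHR letters TTTGAA, to CCAAT and to the E2F letters TTTCCCGC, TTTCGCGC, TTTGGCGC and TTTGCCGC. The windows lie at chr5:30666716-30666915 (plus strand) for Cenpa, chr2:164769759-164769958 (plus strand) for Ube2c, chr10:69352883-69353082 (minus strand) for Cdk1, chr11:117849067-117849266 (plus strand) for Birc5, chr1:128359676-128359875 (minus strand) for Mcm6 and chr2:132253151-132253350 (minus strand) for Pcna.
Cenpa: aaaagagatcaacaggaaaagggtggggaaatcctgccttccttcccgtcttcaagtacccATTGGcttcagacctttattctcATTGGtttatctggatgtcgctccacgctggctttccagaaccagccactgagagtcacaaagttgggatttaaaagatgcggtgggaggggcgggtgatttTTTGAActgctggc
Ube2c: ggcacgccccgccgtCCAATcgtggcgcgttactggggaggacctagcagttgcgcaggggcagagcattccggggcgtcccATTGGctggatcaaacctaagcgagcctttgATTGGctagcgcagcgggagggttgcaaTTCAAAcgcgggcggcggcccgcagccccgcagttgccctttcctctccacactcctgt
Cdk1: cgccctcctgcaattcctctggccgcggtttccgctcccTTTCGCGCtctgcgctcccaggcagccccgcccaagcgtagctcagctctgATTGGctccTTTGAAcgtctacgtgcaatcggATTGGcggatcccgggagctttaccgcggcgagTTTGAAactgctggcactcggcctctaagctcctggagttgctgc
Birc5: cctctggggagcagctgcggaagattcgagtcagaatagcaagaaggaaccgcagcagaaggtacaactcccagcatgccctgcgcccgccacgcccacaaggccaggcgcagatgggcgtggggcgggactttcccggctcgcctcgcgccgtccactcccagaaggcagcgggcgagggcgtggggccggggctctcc
Mcm6: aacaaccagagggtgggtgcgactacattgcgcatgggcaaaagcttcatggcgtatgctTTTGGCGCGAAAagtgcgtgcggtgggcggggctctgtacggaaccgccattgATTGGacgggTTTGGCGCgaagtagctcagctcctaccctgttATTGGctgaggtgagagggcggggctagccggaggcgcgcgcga
Pcna: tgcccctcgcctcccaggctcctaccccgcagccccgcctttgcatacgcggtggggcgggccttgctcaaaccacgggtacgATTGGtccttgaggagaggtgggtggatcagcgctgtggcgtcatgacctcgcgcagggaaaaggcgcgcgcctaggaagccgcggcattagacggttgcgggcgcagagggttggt

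Cenpa, Ube2c and Cdk1 held CHR and CCAAT letters near the start, Birc5 held none of the searched letters, Mcm6 held 3 E2F matches, of which 2 overlap, and Pcna held a CCAAT match alone. Cdk1 also held an E2F match. In the full table windows of 250 bases before to 50 after the start, 20 of the 25 G2/M members and 9 of the 10 S members were present. TTTGAA occurred in 75% of these G2/M members, 11.1% of the S members and 18.1% of all 27025 promoters of the table. CCAAT occurred in 90% of the G2/M members, 88.9% of the S members and 37.9% of all promoters. Both occurred together in 75%, 11.1% and 7.12% in the same order. The E2F letters occurred in 5%, 44.4% and 2.32%. A match describes letters in the window and not a bound site, and in Mcm7 a CCAAT match and an E2F match overlap.

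On build GRCm38 with GENCODE vM21 gene models, Cenpa spans chr5:30666777-30674830, Ube2c chr2:164769898-164778822, Birc5 chr11:117849251-117855743, Top2a chr11:98992943-99024189, Cdk1 chr10:69335146-69352938, Pcna chr2:132249162-132253314, Mcm6 chr1:128331590-128359664 and Tyms chr5:30058202-30073617. Among the 35 member loci, 14 overlap another annotated gene, 6 of them on the same strand. Whether the counting split reads of those genes was not tested.

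G2/M transcripts were low in the SMC gate of both saline libraries and higher in both AngII libraries, highest in the library labelled KO AngII. Summed over the 25 members, the SMC gate stood at 19.4, 119, 19.97 and 336 CPM. The AngII to saline log2 ratio was 2.62 (2.52 to 2.71) in WT, or 6.14-fold, and 4.07 (3.99 to 4.15) in KO, or 16.8-fold. The SMC gate of KO AngII exceeded that of WT AngII by 1.49 (1.45 to 1.53), or 2.81-fold. A stricter SMC gate took cells with at least 10 UMIs of Myh11. It also asked for under 10 of Dcn and Lum together and under 10 of Lyz2, C1qa and C1qb together. Between the saline libraries the ratio was 0.038 (-0.079 to 0.16) and turned with the cells used. The ratio was -0.19 under that stricter gate and 0.47 without the 5% of cells with the most UMIs. With the stricter gate the AngII ratios were 1.67 in WT and 3.25 in KO, so both were smaller but in the same direction. The 4 comparisons share libraries and are not independent of each other.

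Fibroblast gate cells showed the widest range of G2/M transcripts, at 16.5, 417, 58.2 and 719 CPM. AngII exceeded saline by a log2 ratio of 4.66 (4.31 to 5.02) in WT, or 25.2-fold, and 3.63 (3.39 to 3.87) in KO, or 12.4-fold. KO AngII exceeded WT AngII by 0.79 (0.75 to 0.82), or 1.72-fold. A stricter fibroblast gate raised the minimum of Dcn and Lum to 20 UMIs and asked for under 10 of Lyz2, C1qa and C1qb. KO saline exceeded WT saline by 1.82 (1.39 to 2.25), which became 1.01 under the stricter gate and 0.91 in cells of at least 5000 UMIs. Those saline sums rest on 68 UMIs in WT and 144 in KO. Cells with at least 3 G2/M members held 8 of the 68 in 2 cells and 99 of the 144 in 5 cells. Outside these cells the levels were 14.7 and 18.4 CPM. The interval does not cover this spread between cells. The fibroblast gate of KO saline was also the one with the highest smooth muscle marker level, and the part of that RNA in the ratio was not tested.

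Phagocyte gate cells already held these transcripts under saline, at 385, 792, 684 and 823 CPM, and WT saline was the lowest of the 4. AngII exceeded saline by 1.04 (0.92 to 1.17) in WT and by 0.27 (0.10 to 0.43) in KO. The KO value became -0.12 in cells of at least 5000 UMIs, so its direction depended on the cells used. KO saline exceeded WT saline by 0.83 (0.63 to 1.03), from 83 and 285 cells. Of these G2/M UMIs, 93.0% in KO saline lay in 6 cells and 88.4% in WT saline lay in 16 cells. Those cells were chosen by holding at least 3 G2/M members, and the remaining cells stood at 56.1 and 48.9 CPM. The interval counts UMIs and does not cover the spread between cells. The AngII libraries of both genotypes differed by 0.056 (-0.0042 to 0.12), an interval that includes 0.

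**Figure D1:**
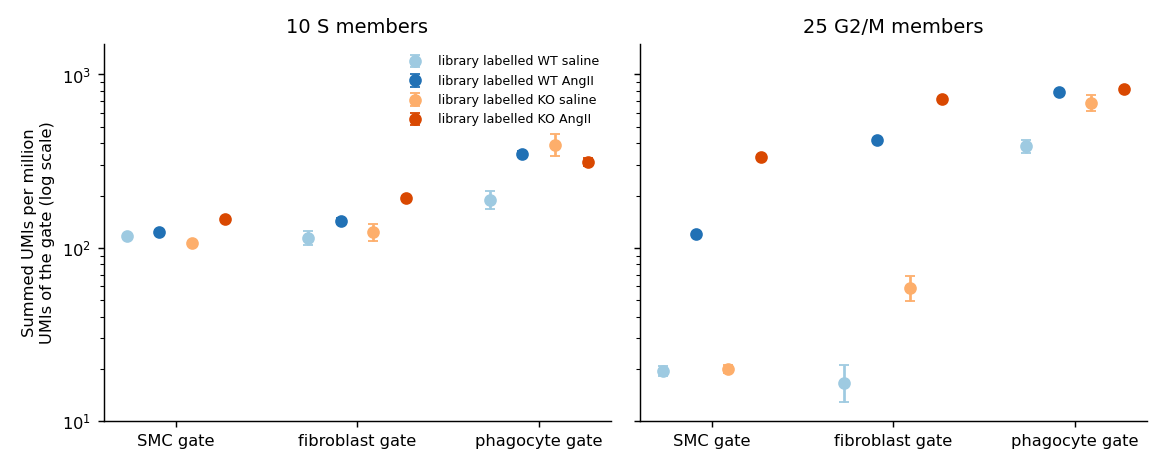
Summed CPM of the 10 S and the 25 G2/M members in the 4 libraries, by gate, on a logarithmic axis. Points are single libraries and bars are exact Poisson intervals that cover counting error. G2/M sums in the SMC gate lie at 19.4 and 19.97 CPM under saline and at 119 and 336 CPM under AngII, while S sums of that gate stay between 106 and 146 CPM.

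Cells with at least 3 G2/M members detected were rare under saline in the SMC and fibroblast gates (the wall cells below) and more frequent under AngII. In the SMC gate they made up 0.119% (9 of 7546 cells, 0.0546 to 0.226%) of WT saline and 2.29% (135 of 5889 cells, 1.93 to 2.71%) of WT AngII. The KO libraries had 0.329% (34 of 10350 cells, 0.228 to 0.459%) under saline and 5.32% (301 of 5660 cells, 4.75 to 5.93%) under AngII. The intervals of the AngII shares lie above those of the saline shares and apart from each other. Those of the saline shares lie just apart as deposited and overlap after the thinning described below. Fibroblast gate shares were 0.196%, 7.72%, 0.988% and 23.7%, and the library labelled KO AngII had the highest, 23.7% (446 of 1879 cells, 21.8 to 25.7%). Phagocyte gate shares were 5.61%, 16.3%, 7.23% and 18.2%, with WT saline and KO saline resting on 16 and 6 cells.

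Detection moves with depth, so each cell was thinned to 3000 UMIs and shallower cells were left out. The G2/M shares then were 0.0956% (0.0384 to 0.197%), 1.53%, 0.185% (0.108 to 0.297%) and 3.67% in the SMC gate, 0%, 5.42%, 1.201% and 12.9% in the fibroblast gate and 5.45%, 12.1%, 7.04% and 13.8% in the phagocyte gate. Left out as shallow in WT saline and KO saline were 223 and 1181 SMC gate cells, 354 and 173 fibroblast gate cells and 28 and 12 phagocyte gate cells, and 0 in the AngII libraries. After thinning, both AngII libraries still exceeded both saline libraries in each gate. The WT saline fibroblast gate had 0 such cells of 667, which allows a share of up to 0.450%, taken as 3 cells of the total and not as a Clopper-Pearson bound. In cells of at least 5000 UMIs, thinned to 5000, a floor that is the same for the 4 libraries, the shares were 0.108%, 1.82%, 0.179% and 4.44% in the SMC gate, 0%, 6.63%, 1.13% and 16.1% in the fibroblast gate and 8.33%, 15.6%, 13.04% and 16.8% in the phagocyte gate. The stricter phagocyte gate raised the minimum of Lyz2, C1qa and C1qb to 20 UMIs and asked for at most 1 of Myh11. With the stricter gates and no thinning, the shares were 0.0595%, 1.001%, 0.149% and 2.51% in the SMC gate, lower in each library by more than 1.5 times. They were 0.243%, 6.97%, 0.767% and 22.0% in the fibroblast gate and 4.56%, 17.1%, 10.3% and 17.6% in the phagocyte gate.

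**Figure D2:**
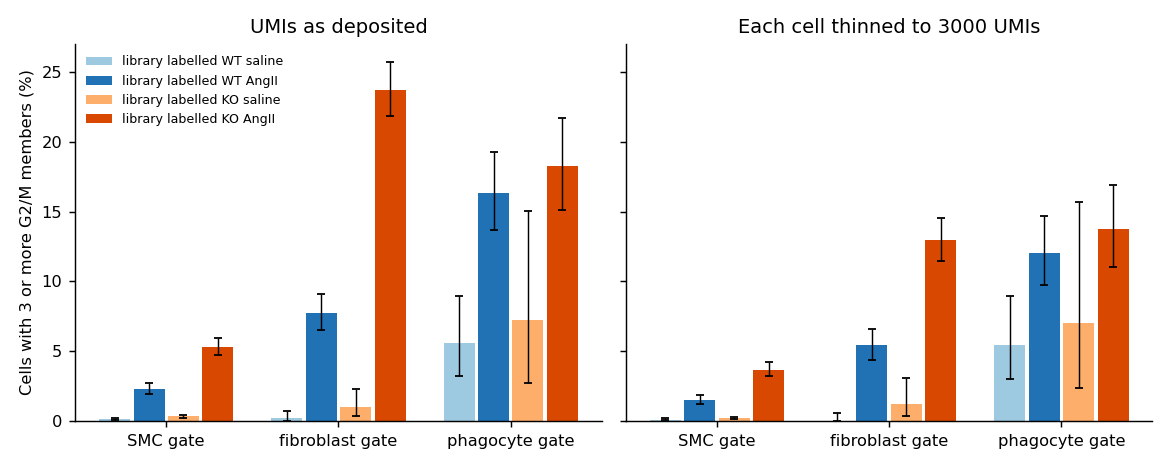
Percent of cells with at least 3 G2/M members detected, by gate and library, as deposited and after thinning each cell to 3000 UMIs. Error bars are exact Clopper-Pearson intervals. The thinned G2/M share of the fibroblast gate reaches 12.9% in KO AngII against 5.42% in WT AngII.

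In the wall cells the G2/M members were higher together with AngII. In the SMC gate 24 of 24 members that had at least 50 UMIs were higher in WT AngII than in WT saline, beside 13.1% of all genes counted higher and 16.6% lower. In KO it was 25 of 25, beside 10.8% and 19% of all genes. A member can pass the UMI filter only through its high library, so these counts are a description. Of the 10 members with at least 50 UMIs in the saline library alone, all 10 were higher in each genotype. Between the saline libraries 2 of 19 were higher and 2 lower in KO, beside 7.47% and 6.37% of all genes. KO AngII had 25 of 25 higher than WT AngII, beside 5.34% and 5.96% of all genes, and 24 of them had at least 50 UMIs in WT AngII alone.

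Fibroblasts followed the same pattern, and 23 of 23 members were higher with AngII in WT, beside 15% of all genes higher and 21.4% lower, and 25 of 25 in KO, beside 14.4% and 29.4%. No member had 50 UMIs in either saline library alone, so all of them passed the filter through AngII. Between the saline libraries no G2/M member reached 50 UMIs, and 11% and 9.98% of all genes were counted higher and lower. KO AngII had 15 of 25 higher than WT AngII and none lower, beside 6.26% and 15.5% of all genes. With a 2-fold limit this count was 3.

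Phagocyte gate counts for AngII rest on sparse saline libraries, in which 3 members in WT and 0 in KO had 50 UMIs in the saline library alone. There 20 of 24 members were higher with AngII in WT, beside 13.5% of all genes higher and 16.1% lower. In KO 7 of 22 were higher and 1 lower, beside 16.6% and 15.9%, and the difference between the genotypes was not tested. Between the saline libraries 4 of 5 were higher in KO, beside 8.07% and 12%, and these were among the few with 50 UMIs. Against WT AngII, KO AngII had 0 of 25 higher and 0 lower, beside 4% and 6.52% of all genes.

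**Figure D3:**
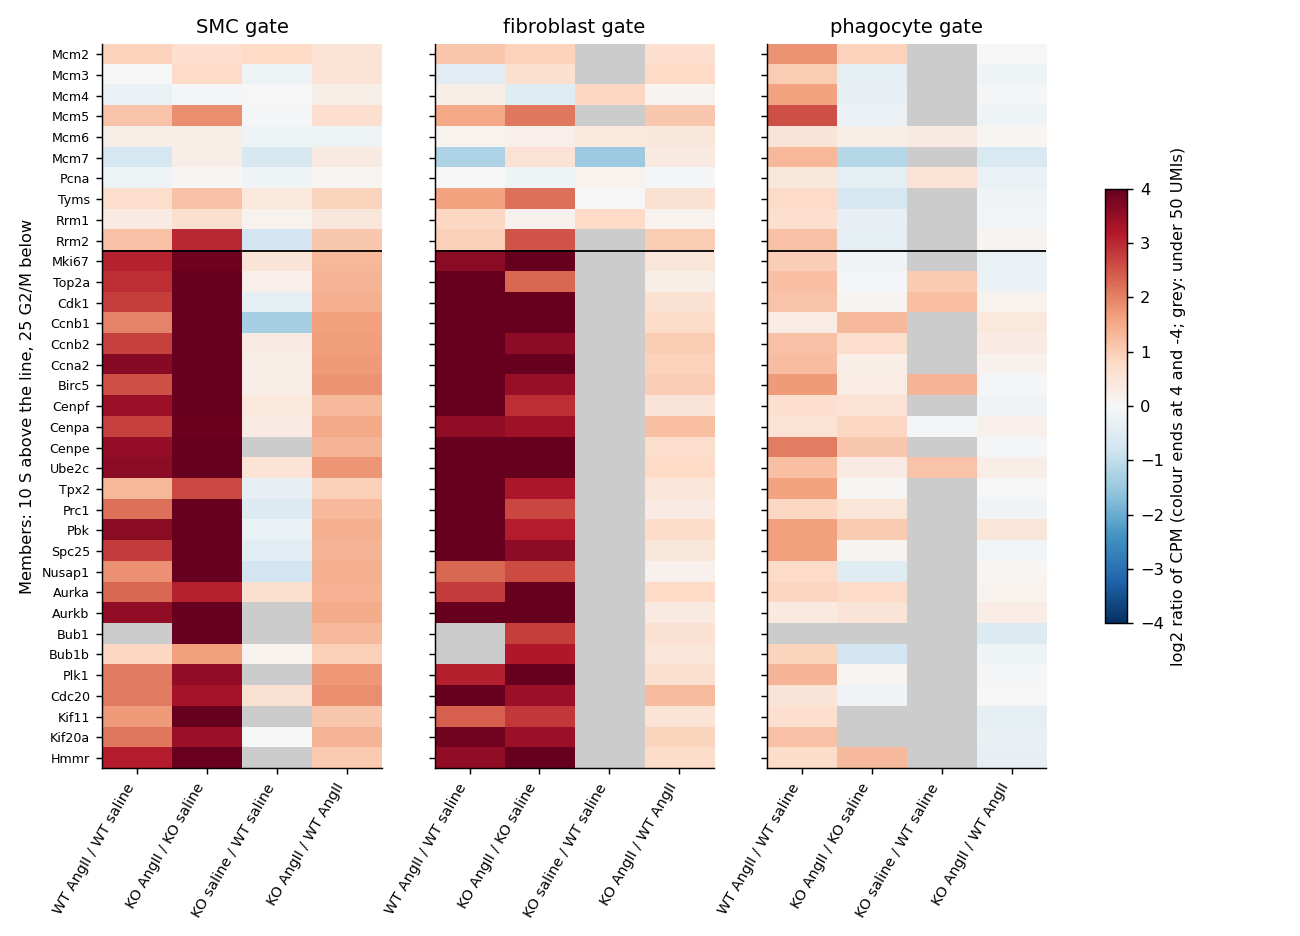
Log2 ratios of the 35 members in 4 comparisons of libraries and 3 gates, with cells left blank where a member had under 50 UMIs over both libraries. Rows are members, S above G2/M, and columns are comparisons by gate. The G2/M rows that could be counted are on the higher side in the AngII against saline columns of the SMC and fibroblast gates, whereas Pcna and Mcm6 stay near 0.

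Cenpa, the histone H3 variant that marks centromeres, had the most UMIs of the G2/M members. It stood at 2.38, 15.8, 2.97 and 45.4 CPM in the SMC gate, where both AngII libraries lay above both saline libraries. Its AngII to saline log2 ratio was 2.73 (2.47 to 3.01) in WT and 3.93 (3.73 to 4.14) in KO, and KO AngII exceeded WT AngII by 1.52 (1.42 to 1.62). Cenpa in the fibroblast gate stood at 4.37, 50.7, 11.3 and 118 CPM, with ratios of 3.53 (2.87 to 4.30) in WT and 3.38 (2.84 to 3.97) in KO. KO AngII was again the highest, by 1.21 (1.11 to 1.32) over WT AngII. The phagocyte gate stood apart, at 57.7, 86.1, 56.3 and 99.6 CPM, with smaller ratios of 0.58 (0.25 to 0.92) and 0.82 (0.26 to 1.44). Among phagocyte gate cells with 0 to 2 G2/M members, 13.8%, 22.5%, 14.3% and 20.4% held a Cenpa UMI. In SMC gate cells of the same kind it was 0.995%, 2.59%, 0.960% and 3.53%, so Cenpa alone marked fewer cells outside the multi-member cells there. The median depths of these SMC gate cells were 6398, 10235, 6469 and 8449 UMIs, against 4580, 7423.5, 5063 and 7184 in those of the phagocyte gate.

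Ube2c, the ubiquitin-conjugating enzyme of the anaphase-promoting complex, stood at 1.002, 11.9, 1.48 and 40.8 CPM in the SMC gate. The AngII to saline ratio was 3.57 (3.17 to 4.001) in WT and 4.79 (4.50 to 5.08) in KO, and KO AngII exceeded WT AngII by 1.78 (1.66 to 1.90). Fibroblast gate values were 0.486, 52.1, 2.83 and 90.6 CPM, where the WT saline value rests on 2 UMIs and the ratio of 6.74 (4.89 to 9.79) is wide for that reason. In KO the fibroblast ratio was 5.00 (3.96 to 6.32), and between the AngII libraries 0.80 (0.69 to 0.91). Phagocyte gate values were 38.7, 89.3, 85.5 and 107 CPM. There WT saline alone was low, with a ratio of 1.21 (0.82 to 1.62) in WT and 0.32 (-0.14 to 0.82) in KO.

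Birc5 (survivin), a subunit of the chromosomal passenger complex, stood at 1.08, 6.49, 1.31 and 22.6 CPM in the SMC gate, with ratios of 2.59 (2.19 to 3.02) in WT and 4.11 (3.804 to 4.43) in KO. The KO AngII value exceeded that of WT AngII by 1.80 (1.64 to 1.96). It stood at 2.19, 34.3, 6.06 and 67.4 CPM in the fibroblast gate, with ratios of 3.97 (3.04 to 5.11) and 3.48 (2.75 to 4.32) with AngII and 0.98 (0.84 to 1.11) between the AngII libraries. KO AngII was the highest of the 4 libraries in both wall gates. Phagocyte gate values of Birc5 were 26.2, 84.6, 66.7 and 82.0 CPM, where WT saline was lowest and the other libraries lay closer together. The WT ratio there was 1.69 (1.23 to 2.19), and KO AngII against WT AngII was -0.045 (-0.24 to 0.14).

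Top2a, the topoisomerase that untangles replicated chromosomes, stood at 1.02, 7.85, 1.18 and 19.9 CPM in the SMC gate, with ratios of 2.94 (2.54 to 3.38) in WT and 4.08 (3.76 to 4.42) in KO. KO AngII against WT AngII was 1.34 (1.19 to 1.497). Top2a in the fibroblast gate stood at 0.243, 26.8, 6.46 and 31.5 CPM, and the WT saline value is 1 UMI, which leaves a ratio of 6.79 (4.30 to 12.09). The 2 AngII libraries were nearer to each other for Top2a than for Cenpa in this gate, at 0.23 (0.065 to 0.40). Its phagocyte gate values were 36.0, 83.5, 75.0 and 71.1 CPM, with 1.21 (0.81 to 1.64) in WT and -0.079 (-0.58 to 0.46) in KO.

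Cdk1, the kinase that drives entry into mitosis, stood at 1.02, 6.95, 0.796 and 18.6 CPM in the SMC gate. The AngII to saline ratio was 2.77 (2.36 to 3.20) in WT and 4.54 (4.16 to 4.96) in KO, and KO AngII exceeded WT AngII by 1.42 (1.26 to 1.58). Cdk1 in the fibroblast gate stood at 0.729, 29.6, 1.21 and 45.2 CPM, with ratios of 5.34 (3.79 to 7.62) and 5.22 (3.67 to 7.50) from few saline UMIs. The AngII libraries differed there by 0.61 (0.46 to 0.76). In the phagocyte gate it stood at 25.6, 56.8, 58.4 and 62.4 CPM, so WT saline was low and the other 3 libraries were close together.

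The remaining 20 G2/M members are given by role, each with its CPM in the 4 libraries. Ccnb1, a B type cyclin that activates Cdk1, stood at 0.813, 3.20, 0.327 and 9.94 CPM in the SMC gate, 0.486, 14.1, 0 and 23.5 in the fibroblast gate and 12.4, 15.4, 8.34 and 20.4 in the phagocyte gate. Ccnb2, the second B type cyclin, stood at 0.699, 4.66, 0.881 and 14.8 CPM in the SMC gate, 0.243, 23.9, 4.04 and 48.5 in the fibroblast gate and 14.4, 32.7, 25.02 and 41.1 in the phagocyte gate. Ccna2, the A type cyclin of S phase and G2, stood at 0.473, 5.93, 0.569 and 19.2 CPM in the SMC gate, 0.486, 15.6, 0.808 and 29.9 in the fibroblast gate and 15.1, 35.1, 33.4 and 39.9 in the phagocyte gate. All 3 cyclin genes were above both saline libraries in both AngII libraries of the SMC and fibroblast gates. Plk1, a kinase of mitotic entry and spindle assembly, stood at 0.321, 1.36, 0.384 and 4.51 CPM in the SMC gate, 0, 6.26, 0.404 and 9.82 in the fibroblast gate and 4.59, 11.7, 10.4 and 10.9 in the phagocyte gate. Aurka, the centrosomal Aurora kinase, stood at 0.321, 1.59, 0.498 and 4.19 CPM in the SMC gate, 0, 5.03, 0.404 and 8.73 in the fibroblast gate and 5.24, 9.48, 6.25 and 10.5 in the phagocyte gate. Aurkb, the Aurora kinase of the chromosomal passenger complex, stood at 0.132, 1.53, 0.242 and 4.33 CPM in the SMC gate, 0.486, 7.94, 0.404 and 10.2 in the fibroblast gate and 15.1, 19.6, 16.7 and 24.0 in the phagocyte gate. In each of these kinases the KO AngII value was the highest of the SMC and fibroblast gates. Pbk, a mitotic protein kinase, stood at 0.548, 6.67, 0.455 and 17.7 CPM in the SMC gate, 0, 12.8, 2.42 and 21.2 in the fibroblast gate and 5.90, 18.3, 12.5 and 25.8 in the phagocyte gate. Mki67, the proliferation marker that coats mitotic chromosomes, stood at 0.340, 2.86, 0.483 and 7.22 CPM in the SMC gate, 0.729, 8.89, 0.404 and 12.5 in the fibroblast gate and 18.3, 36.2, 33.4 and 30.2 in the phagocyte gate. Between the AngII libraries Mki67 differed by 1.33 (1.08 to 1.59) in the SMC gate and 0.49 (0.21 to 0.78) in the fibroblast gate.

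Kinetochore and checkpoint members followed the same order in the wall cells. Cenpe, a kinetochore motor, stood at 0.208, 2.35, 0.341 and 6.06 CPM in the SMC gate, 0.243, 6.09, 0.404 and 9.86 in the fibroblast gate and 3.28, 13.5, 6.25 and 13.2 in the phagocyte gate. Cenpf, a kinetochore and nuclear matrix protein, stood at 0.473, 5.09, 0.640 and 12.5 CPM in the SMC gate, 0.729, 15.5, 2.83 and 21.9 in the fibroblast gate and 15.1, 23.8, 14.6 and 21.7 in the phagocyte gate. Spc25, a subunit of the Ndc80 kinetochore complex, stood at 0.964, 6.73, 0.725 and 17.3 CPM in the SMC gate, 0.486, 17.6, 2.02 and 24.3 in the fibroblast gate and 8.52, 26.3, 22.9 and 24.6 in the phagocyte gate. Each of the 3 was lowest under saline in the SMC and fibroblast gates. Bub1, a spindle checkpoint kinase, stood at 0.0567, 0.635, 0.0569 and 1.55 CPM in the SMC gate, 0, 1.79, 0.404 and 2.72 in the fibroblast gate and 3.93, 5.44, 4.17 and 3.72 in the phagocyte gate. Bub1b, the checkpoint protein BubR1, stood at 0.567, 1.01, 0.625 and 1.94 CPM in the SMC gate, 0, 2.68, 0.404 and 3.73 in the fibroblast gate and 5.90, 11.04, 16.7 and 9.71 in the phagocyte gate. Cdc20, an activator of the anaphase-promoting complex, stood at 1.13, 4.77, 1.72 and 17.4 CPM in the SMC gate, 0.486, 20.6, 4.44 and 49.2 in the fibroblast gate and 14.4, 20.7, 22.9 and 20.9 in the phagocyte gate. For Bub1, Bub1b and Cdc20 the phagocyte gate value of KO AngII was below that of KO saline. Those KO saline values rest on 2, 8 and 11 UMIs, and their intervals overlap those of KO AngII, so no direction is read.

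Spindle members were these. Tpx2, a spindle assembly factor, stood at 2.31, 5.85, 1.82 and 11.2 CPM in the SMC gate, 0.486, 13.6, 2.02 and 19.0 in the fibroblast gate and 7.86, 23.8, 22.9 and 23.8 in the phagocyte gate. Prc1, a protein that bundles midzone microtubules, stood at 1.32, 6.11, 0.910 and 15.0 CPM in the SMC gate, 0.486, 18.6, 3.64 and 23.4 in the fibroblast gate and 14.4, 25.7, 16.7 and 23.1 in the phagocyte gate. Nusap1, a microtubule protein of the spindle, stood at 1.02, 3.64, 0.597 and 9.72 CPM in the SMC gate, 2.67, 13.1, 2.42 and 14.8 in the fibroblast gate and 17.7, 30.01, 43.8 and 31.6 in the phagocyte gate. Tpx2 stood out among them for its saline level in the SMC gate: its WT ratio was 1.34 (1.05 to 1.65), and of the 24 members only Bub1b had a smaller one, 0.83 (0.18 to 1.503). Kif11, the motor that separates spindle poles, stood at 0.473, 1.53, 0.128 and 3.22 CPM in the SMC gate, 0, 3.86, 0.808 and 5.68 in the fibroblast gate and 5.90, 9.33, 8.34 and 7.23 in the phagocyte gate. Kif20a, a midzone motor of cytokinesis, stood at 0.435, 1.87, 0.441 and 4.79 CPM in the SMC gate, 0.486, 7.10, 1.21 and 13.2 in the fibroblast gate and 4.59, 10.4, 12.5 and 8.47 in the phagocyte gate. Hmmr, a spindle and hyaluronan-binding protein, stood at 0.340, 2.97, 0.398 and 6.13 CPM in the SMC gate, 0, 8.50, 0.808 and 14.3 in the fibroblast gate and 7.86, 13.1, 4.17 and 10.3 in the phagocyte gate. The SMC gate values of Kif11, Kif20a and Hmmr were again in the order of KO AngII over WT AngII over both saline libraries.

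In the wall cells S members differed less between AngII and saline than G2/M members did. Summed over the 10, the SMC gate stood at 116, 124, 106 and 146 CPM, with an AngII to saline log2 ratio of 0.093 (0.045 to 0.14) in WT and 0.46 (0.42 to 0.51) in KO. The WT value was -0.11 under the stricter SMC gate, so its direction was not stable. KO AngII exceeded WT AngII by 0.23 (0.19 to 0.28), and the saline libraries differed by -0.14 (-0.18 to -0.086). Fibroblast gate sums were 114, 143, 123 and 194 CPM, with 0.33 (0.19 to 0.47) in WT, 0.66 (0.49 to 0.83) in KO and 0.43 (0.37 to 0.50) between the AngII libraries. In the phagocyte gate they were 188, 346, 394 and 312 CPM. There WT saline was lowest, AngII against saline was 0.88 (0.70 to 1.06) in WT and -0.34 (-0.55 to -0.11) in KO, and the KO value became 0.33 without the 5% of cells with the most UMIs.

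Pcna and Mcm6 made up 68.5%, 64.5%, 66.7% and 52.7% of the S UMIs of the SMC gate, and both were near level. Pcna, the polymerase clamp, which also serves DNA repair, stood at 42.7, 36.9, 38.2 and 39.1 CPM there, 36.5, 37.1, 40.4 and 35.6 CPM in the fibroblast gate and 71.4, 97.0, 106 and 81.2 CPM in the phagocyte gate. Its AngII to saline ratios were -0.21 (-0.29 to -0.13) and 0.033 (-0.047 to 0.11) in the SMC gate and 0.027 (-0.23 to 0.29) and -0.18 (-0.48 to 0.13) in the fibroblast gate. Scaling by the trimmed mean of M values (TMM) adds 0.31 to the last of these and turns its direction. Mcm6, a helicase subunit, stood at 36.8, 43.0, 32.3 and 37.7 CPM, 13.4, 14.8, 17.8 and 20.4 CPM and 27.5, 39.3, 35.4 and 41.3 CPM in the same gates. Its SMC ratios were 0.22 (0.14 to 0.31) in WT and 0.22 (0.14 to 0.31) in KO, and KO AngII against WT AngII was -0.19 (-0.27 to -0.11). Without these 2 genes the S ratios were 0.26 (0.18 to 0.35) in WT and 0.97 (0.90 to 1.04) in KO in the SMC gate, 0.51 (0.32 to 0.70) and 1.09 (0.86 to 1.33) in the fibroblast gate, and 1.23 (0.98 to 1.499) and -0.41 (-0.69 to -0.12) in the phagocyte gate.

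Tyms, thymidylate synthase, stood at 5.07, 8.25, 6.79 and 15.2 CPM in the SMC gate, with 0.70 (0.49 to 0.92) in WT, 1.16 (0.996 to 1.32) in KO and 0.88 (0.72 to 1.03) between the AngII libraries. Fibroblast gate values of Tyms were 8.02, 24.5, 8.08 and 37.2 CPM, with 1.61 (1.10 to 2.17) in WT and 2.20 (1.57 to 2.92) in KO. In both wall gates KO AngII was the highest for Tyms, whereas in the phagocyte gate, at 15.1, 25.7, 37.5 and 23.3 CPM, KO saline was. Rrm2, the small subunit of ribonucleotide reductase, stood at 3.16, 7.14, 1.86 and 14.9 CPM in the SMC gate, 8.26, 16.0, 5.66 and 32.4 in the fibroblast gate and 12.4, 28.0, 39.6 and 29.9 in the phagocyte gate. Rrm1, its large subunit, stood at 6.94, 8.76, 7.69 and 12.0 CPM in the SMC gate, 10.9, 19.5, 19.0 and 21.5 in the fibroblast gate and 18.3, 28.9, 33.4 and 26.9 in the phagocyte gate. Rrm2 had the largest AngII ratios of the S members in the SMC gate, 1.18 (0.92 to 1.44) in WT and 3.00 (2.74 to 3.28) in KO.

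The other helicase subunits differed among themselves. Mcm2, a subunit of the replicative helicase, stood at 1.34, 2.57, 2.35 and 3.73 CPM in the SMC gate, 2.19, 4.75, 4.04 and 7.63 in the fibroblast gate and 4.59, 15.9, 8.34 and 15.7 in the phagocyte gate. Mcm3, a second subunit, stood at 3.799, 3.79, 3.28 and 5.53 CPM in the SMC gate, 7.29, 5.42, 6.06 and 9.38 in the fibroblast gate and 17.7, 35.6, 41.7 and 31.8 in the phagocyte gate. Mcm4, another subunit, stood at 6.26, 5.17, 6.34 and 6.03 CPM in the SMC gate, 7.05, 8.22, 12.5 and 8.93 in the fibroblast gate and 4.59, 14.0, 16.7 and 13.4 in the phagocyte gate. Mcm4 was near level between AngII and saline in the SMC gate, at -0.28 (-0.50 to -0.051) in WT and -0.072 (-0.28 to 0.13) in KO, and TMM scaling adds 0.15 to the KO value, which turns its direction. Mcm5, a further subunit, stood at 1.34, 2.96, 1.31 and 4.76 CPM in the SMC gate, 1.70, 4.92, 2.42 and 10.4 in the fibroblast gate and 5.90, 35.3, 37.5 and 31.6 in the phagocyte gate. Mcm7, the last of the 6, stood at 8.77, 5.37, 5.66 and 6.85 CPM in the SMC gate, 19.0, 8.11, 6.87 and 10.3 in the fibroblast gate and 10.5, 26.3, 37.5 and 17.1 in the phagocyte gate. Mcm7 went in opposite directions in the genotypes. In the SMC gate its AngII ratio was -0.71 (-0.91 to -0.50) in WT and 0.28 (0.073 to 0.48) in KO, and in the phagocyte gate 1.33 (0.58 to 2.17) in WT and -1.13 (-1.88 to -0.31) in KO.

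By the 1.5-fold count, 4 of 10 S members were higher and 1 lower with AngII in WT in the SMC gate, and 6 were higher and none lower in KO, against the shares of all genes given above for these comparisons. Between the saline libraries 1 was higher and 2 lower in KO, and between the AngII libraries 3 were higher. Of the fibroblast gate, 5 were higher and 1 lower in WT, beside 15% and 21.4% of all genes. In KO 6 were higher, beside 14.4%, and 5 were higher in KO AngII than in WT AngII, beside 6.26%. Only 3 members in WT and 1 in KO had 50 UMIs in the saline library alone, and 0 of these were higher. The members counted higher with AngII thus passed the filter only with their AngII UMIs. Between the saline libraries 2 of 6 were higher and 1 lower in that gate, beside 11% and 9.98% of all genes. In the phagocyte gate 8 were higher in WT, beside 13.5% of all genes, and 1 higher and 2 lower in KO, beside 16.6% and 15.9%. There 1 member in each genotype had 50 UMIs in the saline library alone, and it was counted neither higher nor lower. In that gate 0 of 2 differed between the saline libraries, and 1 was lower in KO AngII than in WT AngII, beside 6.52%.

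Cells with at least 3 S members, after thinning to 3000 UMIs, made up 0.178%, 1.19%, 0.240% and 1.47% of the SMC gate, 0.300%, 2.18%, 0.601% and 3.73% of the fibroblast gate and 0.778%, 8.79%, 7.04% and 7.51% of the phagocyte gate. As deposited the shares were 3.21%, 5.91%, 2.47% and 7.86%, 0.490%, 8.61%, 1.98% and 18.2% and 4.21%, 21.4%, 10.8% and 21.8%. After thinning, both AngII libraries were above both saline libraries in each gate, by little between KO AngII and KO saline in the phagocyte gate.

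The G2/M members themselves choose the cells with at least 3 of them, so the share of G2/M UMIs in those cells is a description. Cells with at least 3 G2/M members held more of the G2/M UMIs than the remaining cells did in each gate and library other than the fibroblast gate of WT saline. They held 52.6%, 88.0%, 50.5% and 93.4% of the G2/M UMIs of the SMC gate, 11.8%, 93.4%, 68.8% and 94.8% of the fibroblast gate and 88.4%, 93.4%, 93.0% and 92.8% of the phagocyte gate. They held 1.203%, 23.6%, 1.32% and 42.7% of the S UMIs of the SMC gate, 0.213%, 44.1%, 12.2% and 69.2% of the fibroblast gate and 31.7%, 65.2%, 67.2% and 58.5% of the phagocyte gate. Most of the S UMIs of the SMC gate thus lay outside these cells in each library. In the other cells of the SMC gate the S level was 115, 98.1, 105 and 92.6 CPM, lower in the AngII libraries than in the saline libraries. Within the G2/M cells it was 839 CPM in WT AngII and 633 in KO AngII.

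The G2/M cells of the AngII libraries were deeper than the rest of their gates, with a median of 16190 against 10235 UMIs in the SMC gate of WT AngII and 19773 against 8449 in KO AngII. For the fibroblast gate it was 13116 against 8900 and 15932 against 10684. The 34 cells of the SMC gate of KO saline were shallower than their gate, at 4294 against 6469 UMIs, and held a median of 5 members. Of the 9 such cells of WT saline, 4 also passed the phagocyte gate. Doublets were not removed, and their part in these cells was not tested. At least 3 S members were also detected in 76.3% and 73.8% of the G2/M cells of the SMC gate in WT AngII and KO AngII, 55.7% and 55.6% in the fibroblast gate, and 76.5% and 71.6% in the phagocyte gate.

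Split by the number of G2/M members detected, 3 to 5, 6 to 10 and over 10, the SMC gate held 30, 26 and 79 cells in WT AngII and 69, 40 and 192 in KO AngII. The fibroblast gate held 30, 22 and 79 and 147, 116 and 183, and the phagocyte gate 23, 19 and 73 and 23, 20 and 59. Cells with over 10 members were the largest class in each of these 6, and the fibroblast gate of KO AngII had the most cells with fewer. In its 147 cells with 3 to 5 members, Cenpa was detected in 69.4%, Ccnb2 in 55.1% and Birc5 in 46.3%. In its cells with over 10, Birc5 led at 98.4%, followed by Ccna2 at 93.4%. The S level of these 3 classes was 218, 491 and 592 CPM, beside 85.8 in cells with 0 to 2 members. In the phagocyte gate of WT AngII the S level peaked in the middle class, at 971, 1236 and 923 CPM. The classes are ranges of a detection count, which moves with depth, and not cell types.

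**Figure D4:**
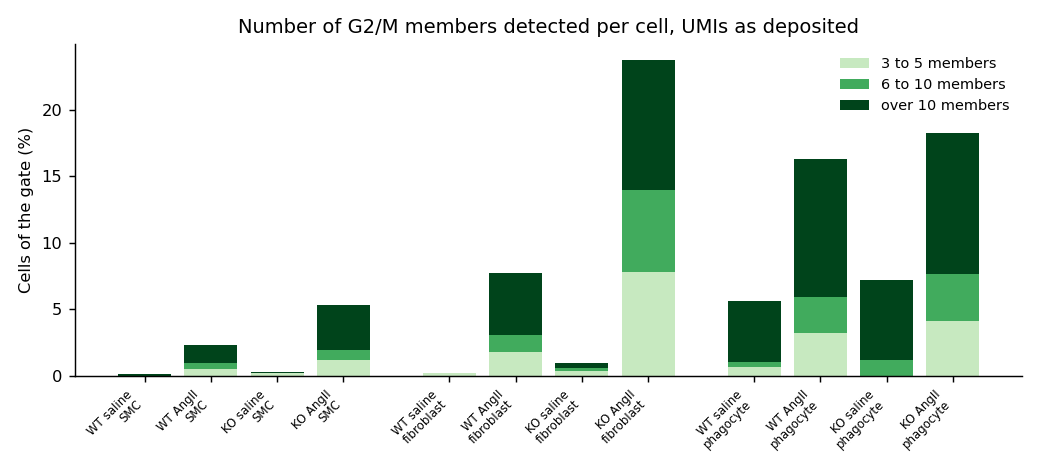
Cells by class of G2/M members detected in the cell, as percent of the cells of the gate, for each gate and library. The 4 libraries are drawn separately as stacked bars, split into 3 to 5, 6 to 10 and over 10 members. In cell numbers, KO AngII has 183 fibroblast gate cells that hold over 10 members, against 79 in WT AngII.

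Other genes of the cycle, from lists that do not include the members, were read the same way against the shares of all genes above, whose median log2 ratios lay between -0.20 and 0.022. Of 45 other G2/M genes, the SMC gate had 28 of 39 higher and 2 lower with AngII in WT and 37 of 42 higher and 1 lower in KO, with medians of 1.90 and 2.89. The largest log2 ratios in WT were those of Melk (4.71, 2.80 to 7.79), Ncapg (3.67), Kif4 (3.48) and Cdca3 (3.42), and in KO those of Melk (5.69, 4.11 to 7.99), Kif2c (5.36, 3.78 to 7.66), Cdca3 (5.00) and Dlgap5 (4.68). Melk is a mitotic kinase, Kif4 and Kif2c are kinesins, Ncapg is a condensin subunit, and Cdca3 helps degrade an inhibitor of mitosis. Between the AngII libraries it was 32 of 42 higher and 0 lower in KO, led by Dlgap5 (1.90), Cdca3 (1.85), Kif4 (1.66) and Kif23 (1.57), and between the saline libraries 3 of 26 higher and 2 lower.

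For fibroblasts the same list had 27 of 34 higher and 1 lower in WT, 35 of 41 higher and 1 lower in KO and 19 of 42 higher and 1 lower in KO AngII against WT AngII. The leading genes were Cdca3 (5.49, 3.63 to 8.54), Cdca8 (4.50, 2.94 to 6.79), Cks2 (4.42) and Racgap1 (4.14, 2.58 to 6.43) in WT and Cenpm (6.10, 3.62 to 11.40), Knstrn (5.94, 3.46 to 11.25), Kif23 (4.34, 1.85 to 9.65) and Cdca3 (3.72) in KO. For phagocytes it had 19 of 29 higher and 2 lower in WT, 6 of 24 higher and 3 lower in KO and 1 of 38 higher and 2 lower between the AngII libraries.

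Of 44 other S and replication genes, the SMC gate had 11 of 40 higher and 6 lower in WT, 21 of 43 higher and 1 lower in KO and 13 of 43 higher and 1 lower in KO AngII against WT AngII. Uhrf1, which maintains DNA methylation at replication forks, and Tk1, the thymidine kinase, led in both genotypes: Uhrf1 (3.48), Tk1 (2.17), Dut (1.63) and Gins1 (-1.31) in WT and Uhrf1 (3.61), Tk1 (3.19), Dscc1 (2.91) and Pole (2.08) in KO. In the fibroblast gate the list had 15 of 37 higher and 3 lower, 20 of 39 higher and 2 lower and 14 of 43 higher and 0 lower in the same order. In the phagocyte gate it had 23 of 35 higher and 1 lower in WT, with Uhrf1 (1.98), Chaf1a (1.88) and Clspn (1.83) among the largest ratios, and 3 of 29 higher and 8 lower in KO, where Rfc5 (1.49, -0.11 to 3.795), Rpa2 (-1.17), Pold2 (-0.92) and Fen1 (-0.79) led.

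G1/S regulators were more mixed. The SMC gate had 8 of 22 higher and 3 lower in WT and 10 of 25 higher and 2 lower in KO, and the fibroblast gate 8 of 22 higher and 4 lower and 7 of 24 higher and 3 lower. Foxm1, a transcription factor of G2/M genes, and the E type cyclins were among the leading genes: E2f8 (6.52, 3.998 to 11.84), Foxm1 (3.85), E2f1 (1.93) and Ccne2 (1.65) in the SMC gate of KO and Foxm1 (3.52, 0.98 to 8.86), Tfdp2 (-2.19), Ccne1 (at least 2.18 higher) and Ccne2 (1.67) in the fibroblast gate of WT. Between the AngII libraries the SMC gate had 7 of 26 higher and 2 lower in KO and the fibroblast gate 6 of 25 higher and 2 lower. CDK inhibitors and p53 arrest genes had 1 of 17 higher and 8 lower in the SMC gate of WT and 3 of 18 higher and 3 lower in KO, and 2 of 17 higher and 8 lower and 4 of 17 higher and 9 lower in the fibroblast gate. The leading ratios in the SMC gate of KO went both ways, with Cdkn1b (-1.91) lower and Cdkn2a (1.60), Cdkn2b (1.03) and Cdkn2c (1.01) higher. In the fibroblast gate of KO they were all lower, Cdkn1c (-2.005), Cdkn1b (-1.87), Btg2 (-1.68) and Sesn1 (-1.46). Cdkn1b encodes the CDK inhibitor p27, and Cdkn1c encodes p57. Cdkn1b stood at 55.9 CPM in the SMC gate of KO saline and 14.9 in KO AngII.

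Within the AngII libraries, cells with at least 3 G2/M members were set beside the other cells of their gate for genes that did not choose them. In the SMC gate, contractile genes were lower in the G2/M cells, with 0 of 12 higher and 11 lower in WT AngII and 0 of 12 higher and 12 lower in KO AngII, beside 21.2% higher and 11.9% lower over all genes in WT and 17.5% and 12.4% in KO. The largest differences were those of Des (-1.40), Myh11 (-1.21), Myl9 (-1.09) and Mylk (-1.08) in WT AngII and Des (-1.73), Myh11 (-1.39), Mylk (-1.34) and Synpo2 (-1.13) in KO AngII, and Myh11 also sets the gate. Under the stricter SMC gate 8 of 12 and 11 of 12 were lower, from 39 and 75 G2/M cells, beside 13.2% and 13.6% of all genes. Markers of the other gates moved with this in the wider gate, where 4 of 6 fibroblast and 7 of 7 phagocyte markers were higher in the G2/M cells of WT AngII, and 3 of 6 and 7 of 7 in those of KO AngII. Their summed level in the G2/M cells was 669 and 319 CPM for phagocyte markers, against 213 and 162 in the whole gate, and their part in the contractile difference was not tested. Under the stricter gate 1 of 6 fibroblast and 3 of 6 phagocyte markers were higher in WT AngII. In KO AngII it was 0 of 6 fibroblast markers, with 1 lower, and 0 of 5 phagocyte markers, with 3 lower (median log2 ratio -0.67). The stricter gate leaves out cells with 10 or more UMIs of Dcn and Lum or of Lyz2, C1qa and C1qb. Its marker counts are thus partly set by that filter, and what it changed in them was not tested.

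Most counted genes of the G1/S regulator list were higher in the G2/M cells of the SMC gate. In WT AngII 14 of 22 were higher and 0 lower, led by Foxm1 (6.62), Ccne2 (5.54), Ccne1 (5.24) and Rbl1 (4.15). In KO AngII 16 of 24 were higher and 1 lower, led by E2f8 (6.78), Foxm1 (6.27), E2f7 (4.75) and Ccne1 (3.88). Of these, Foxm1 is a transcription factor of G2/M genes. CDK inhibitors were mixed, with 5 of 17 higher and 2 lower and 4 of 18 higher and 4 lower, and 4 were lower in WT AngII under the stricter gate. Cdkn2c and Cdkn2d, which encode the inhibitors p18 and p19, were among the higher ones, next to the lower Btg2 in KO: Cdkn2c (4.70), Cdkn2d (1.88), Cdkn1a (1.05) and Cdkn2b (-1.04) in WT AngII and Cdkn2a (4.72), Cdkn2c (4.38), Cdkn2d (2.32) and Btg2 (-1.06) in KO AngII. Matrix and injury genes had 5 of 12 higher and 0 lower and 6 of 12 higher and 0 lower (3 of 11 higher in KO AngII under the stricter gate), led by Spp1 (1.63), Cthrc1 (1.61), Timp1 (1.33) and Lcn2 (1.15) and Lcn2 (5.06), Cthrc1 (1.94), Timp1 (1.43) and Spp1 (1.01).

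Among fibroblast gate cells contractile genes differed little between G2/M cells and the rest, with 1 of 12 higher and 0 lower in WT AngII and 0 of 12 higher and 1 lower in KO AngII, beside 13.1% and 12.6% of all genes in WT and 8.21% and 9.41% in KO. Fibroblast markers had 0 of 6 higher and 3 lower and 0 of 6 higher and 3 lower, and phagocyte markers 6 of 7 higher and 1 lower and 5 of 6 higher and 0 lower. With the stricter fibroblast gate 1 of 5 phagocyte markers was higher in WT AngII and 0 of 5 in KO AngII, with medians of 0.19 and -0.17. That gate leaves out cells with 10 or more UMIs of Lyz2, C1qa and C1qb, so these counts are partly set by the filter. Among CDK inhibitors, Cdkn2c (2.84), Cdkn2d (2.10), Trp53inp1 (-1.63) and Cdkn1c (-1.41) led in WT AngII and Cdkn2c (2.28), Cdkn1c (-1.72), Cdkn2d (1.48) and Trp53inp1 (-1.09) in KO AngII, so Cdkn2c was higher and Cdkn1c lower in the G2/M cells of both. In the phagocyte gate, genes of phagocyte states had 0 of 17 higher and 9 lower in WT AngII and 0 of 16 higher and 7 lower in KO AngII, beside 14.8% and 16.1% of all genes in WT and 12.8% and 9.37% in KO. Ly6c2, a gene of inflammatory monocytes, and Gpnmb, a gene of lipid-laden macrophages, were among the lower ones: Ly6c2 (-3.38, -6.45 to -1.47), Plac8 (-2.09), Gpnmb (-1.67) and Cd163 (-1.65) in WT AngII and Gpnmb (-3.36, -6.44 to -1.45), Retnla (-1.87), Fabp5 (-1.71) and Plac8 (-1.51) in KO AngII. Contractile genes of this gate had 0 of 12 higher and 9 lower in WT AngII and 1 of 12 higher and 2 lower in KO AngII, beside the same shares. Under the stricter phagocyte gate 2 of 10 were higher and 2 lower in WT AngII, beside 1268 and 965 of 6904 genes. In KO AngII it was 0 of 9 higher and 0 lower, beside 876 and 697 of 5886.

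**Figure D5:**
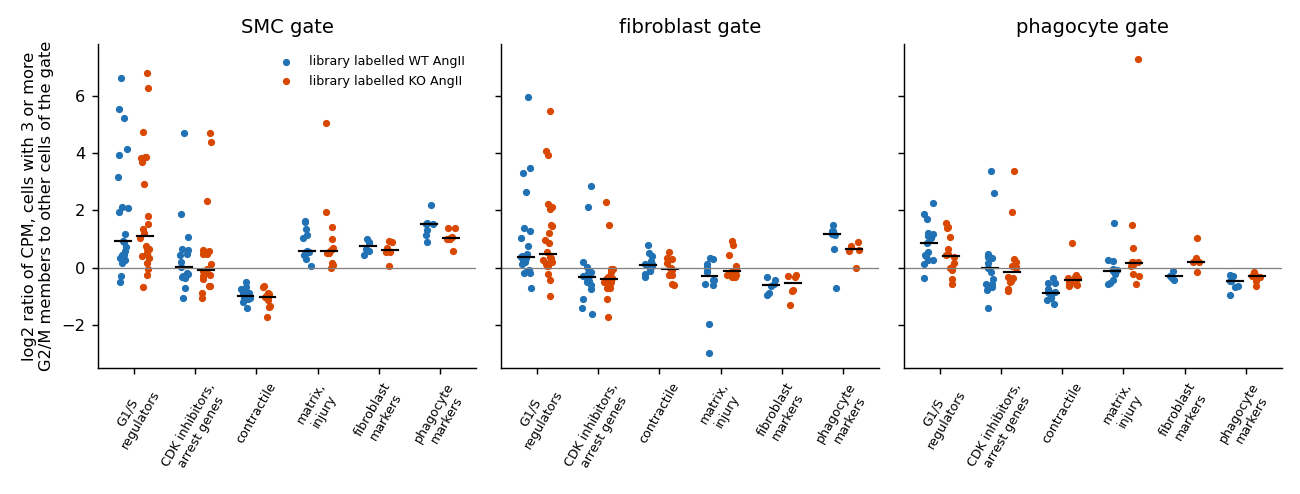
Log2 ratios between cells with at least 3 G2/M members and the other cells of the same gate in the AngII libraries, for lists of genes that are not members. Points are genes with at least 50 UMIs over both sets of cells, by list and gate. Contractile genes lie below 0 in the SMC gate of both libraries, while those of the fibroblast gate scatter around 0. In the phagocyte gate their median is -0.87 in WT AngII and -0.42 in KO AngII.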

How the data were processed

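Single-cell RNA-seq libraries of mouse thoracic aorta (10x 3′ chemistry) were deposited as 1 table of UMI counts per library. The authors deposited whole-number counts of UMIs per gene and cell, and the submitters' processing notes name Cell Ranger and mm10. The Cell Ranger version, annotation and cell filters were not given in the sources used here. The cell cycle members and the other gene lists were chosen with earlier results of these data known.

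Kept were cells of at least 500 genes whose mitochondrial UMIs did not exceed 20%, and doublets were not removed. Counts were summed by library and gate with Python 3.11.15, numpy 2.4.6 and scipy 1.17.1. Intervals for CPM are exact Poisson, for shares Clopper-Pearson and for ratios exact conditional binomial. Replicate error could not be measured, so no test was made. All 35 members had at least 50 UMIs over the 4 libraries of each gate and are given with 4 values per gate, and the 5 G2/M and 3 S members with the most UMIs have ratios too. Of other lists at most 4 genes are named, those with the largest absolute log2 ratio among genes with at least 50 UMIs, and 1 gene that this rule picks is not reported here. The alternatives were TMM scaling (R 4.3.3, edgeR 4.0.16), median-of-ratios scaling, other UMI and fold limits, stricter gates, other cells and other depths. The stricter gates and the classes by number of members for the G2/M cells were added after seeing the data. The scripts were tested on simulated data.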

Additional observations from a re-analysis of the deposited data

Results flagged for a closer look

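Summed S members of the phagocyte gate went in opposite directions with AngII in the genotypes, at a log2 ratio of 0.88 in WT and -0.34 in KO. Each value is 1 pair of libraries, and the difference between the ratios was not tested. The KO saline phagocyte gate held 83 cells, and 67.2% of its S UMIs lay in the 6 cells with at least 3 G2/M members. Outside such cells the S level was 141, 156, 151 and 170 CPM in the 4 libraries. The KO ratio was 0.33 without the 5% of cells with the most UMIs. Mcm7, a subunit of the replicative helicase, also went in opposite directions in both the SMC gate, at -0.71 in WT and 0.28 in KO, and the phagocyte gate, at 1.33 in WT and -1.13 in KO. Its wild type saline level was the highest of the 4 libraries in the SMC gate and the lowest in the phagocyte gate. The phagocyte gate values under saline rest on 16 UMIs in WT and 18 in KO. In the fibroblast gate Mcm7 stood at 19.0, 8.11, 6.87 and 10.3 CPM, lower with AngII in WT and higher in KO. The KO intervals there overlap, and KO saline held 17 UMIs. The difference between the Mcm7 ratios was not tested either.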

How the results depend on the processing

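No paired analysis was possible because each group is 1 library, and no replicate could be left out. All 24 summed ratios moved by less than their counting interval when every deposited cell was used. TMM scaling shifted the log2 ratios by up to 0.31 (fibroblast gate, KO). For AngII against saline in WT, in KO and then KO AngII against WT AngII, the S sums were 0.20, 0.61 and 0.29 in the SMC gate and 0.50, 0.97 and 0.55 in the fibroblast gate, and the G2/M sums 2.73, 4.22 and 1.54 in the SMC gate. The G2/M sums were 3.94 in fibroblasts of KO, 0.90 between the AngII fibroblast gates and 1.18 in WT phagocytes. Median-of-ratios scaling gave S sums of 0.20, 0.63 and 0.29 and of 0.48, 0.96 and 0.56 in that order, and G2/M sums of 2.73, 4.24, 1.55, then 3.93 and 0.91 in the fibroblast gate.

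In cells of at least 5000 UMIs the G2/M sums of the SMC gate were 2.49 in WT, 4.16 in KO, -0.14 between the saline and 1.53 between the AngII libraries. Those of the fibroblast gate were 4.30, 4.13 and 0.91, and of the phagocyte gate 0.65 and, reversed, -0.12, with S at -0.61 in KO phagocytes. With stricter gates the S sums were -0.11 (reversed), 0.20 and 0.17 in the SMC gate and 1.22 in WT and 1.44 between saline libraries in the phagocyte gate. The G2/M sums were 1.67, 3.25, -0.19 and 1.39 in the SMC gate, 4.36, 1.01 and 0.83 in the fibroblast gate, and 1.23, 0.038, 1.16 and -0.033 in the phagocyte gate. Without the 5% of cells with the most UMIs the S sums were 0.34 in KO and 0.15 between AngII libraries in the SMC gate, and 1.18, 0.33 (reversed) and 0.67 in the phagocyte gate. The G2/M sums were 2.92, 0.47 and 1.63 in the SMC gate, 0.88 between AngII fibroblast gates, and 1.18, 0.64 and 0.57 in the phagocyte gate. The cause of these shifts was not tested.

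With a 2-fold limit the S members counted higher in the SMC gate were 2 in WT, 3 in KO, 0 between saline and 1 between AngII libraries, with 0 lower in WT and 0 lower between saline libraries. In the fibroblast gate they were 3, 3, 0 and 2, and in KO phagocytes 0 higher and 1 lower, with 0 lower between AngII libraries. G2/M members at that limit were 0 higher and 1 lower between the SMC gates of the saline libraries, 3 between the AngII fibroblast gates, 12 in WT phagocytes, and 4 higher and 0 lower in KO phagocytes. With TMM scaling, 5 S members were higher between the AngII SMC gates and 1 lower in KO phagocytes. With at least 100 UMIs, S members were 3 higher in WT fibroblasts, 0 higher and 0 lower between saline fibroblast gates and 0 higher in KO phagocytes. G2/M members then were 1 higher and 0 lower between the saline SMC gates, 13 in WT phagocytes, 4 higher and 0 lower in KO phagocytes and 1 between saline phagocyte gates. With at least 20 UMIs, 6 S and 11 G2/M members were higher between saline phagocyte gates, 4 G2/M members between saline SMC gates and 2 between saline fibroblast gates. Depth limits the saline fibroblast and phagocyte gates most, where G2/M sums rest on 68 to 587 UMIs.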

Other observations

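Cells outside the 3 gates also held the members. They numbered 424, 270, 1103 and 480 in the 4 libraries, in the order used above, and their summed G2/M level was 40.3, 579, 84.2 and 1209 CPM. The KO AngII value is above that of any gate. At least 3 G2/M members were detected in 2, 31, 6 and 125 of these cells, which is 8%, 7.71%, 11.8% and 13.02% of all such cells of each library. In KO AngII 84 of the 125 held 1 or 2 UMIs of Myh11 and 41 held none, and in WT AngII 20 of the 31 held 1 or 2. Their smooth muscle markers summed to 9793 CPM and their fibroblast markers to 7481 in KO AngII, with 7466 and 7148 in WT AngII. The smooth muscle levels lie between those of the SMC and the fibroblast gate. The share of a gate in all cells with at least 3 G2/M members also differed. The fibroblast gate held 46.5% of the 960 such cells of KO AngII and 32.6% of the 402 of WT AngII. The phagocyte gate held 10.6% and 28.6%, and the SMC gate 31.4% and 33.6%.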
